A study of Mus musculus with 4 samples.

Results

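Clu, Ehf, Fxyd2, M1ap and Csf1 are 5 of the 22631 genes counted in single dendritic cells (DCs) that had migrated from mouse ear skin to the draining lymph node. The 5 genes were picked from values of these same counts, because each had a lower level in DCs after MC903 than in untreated mice. The MC903 difference is therefore given here as a description, with no test, and nothing is drawn from its direction. The genes were followed in 4680 MC903 DCs of 5636 filtered barcodes, and in 6027 untreated DCs of 8422 filtered barcodes.

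All mice carried the Tnfsf4KI/+ genotype, in which a blue fluorescent protein (BFP) reports OX40L, the T cell costimulatory ligand encoded by Tnfsf4. MC903 is a vitamin D analogue known to raise TSLP, an epithelial cytokine, in treated skin. It was applied to the ears on days 0, 2 and 4, the other mice were left untreated, and all nodes were collected on day 5. Migratory DCs (B220-, CD11c intermediate, MHC class II high) were sorted into 5000 BFP+ and 7000 BFP- cells per treatment, each labelled with its own hashtag antibody. The 4 populations are thus MC903 BFP+, MC903 BFP-, untreated BFP+ and untreated BFP-, each 1 pool of mice whose number, age and sex the labels do not state. The MC903 cells formed 1 droplet capture and sequencing lane and the untreated cells another, so treatment, capture and lane cannot be told apart. With 1 pool per population no test across mice was possible, and every interval below is a 95% interval that covers counting error only.

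DCs that leave the skin switch on Ccr7 and carry antigen to the lymph node, both in inflammation and at rest. The 5 genes have unlike roles outside this setting. Clu encodes clusterin, a secreted chaperone that binds misfolded proteins. Ehf is an ETS-family transcription factor best known from epithelia. Fxyd2 is the gamma subunit that tunes the sodium pump and is best known from kidney tubules. M1ap is needed for meiosis in the male mouse germ line. Csf1 is macrophage colony-stimulating factor, the ligand of Csf1r on macrophages and osteoclast precursors.

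A barcode was taken as a DC when it held at least 3 UMIs (unique molecular identifiers, each 1 counted transcript) of Fscn1, Ccr7, Ccl22, Cacnb3 and Il4i1 and was not gated as a T or B cell. Levels are counts of a gene divided by all UMIs of the group and scaled to CPM (counts per 1000000). MC903 DCs held a median of 9855.5 UMIs and untreated DCs 2656, so shares of cells are compared only after thinning each cell to 2000 UMIs. Hashtags placed 1409 MC903 DCs as BFP+ and 3146 as BFP-, and 448 untreated DCs as BFP+ and 4095 as BFP-. Among DCs placed by a hashtag the reporter transcript followed the sort. It was at 106.9 CPM in MC903 BFP+ against 10.1 CPM in MC903 BFP- DCs. In untreated mice it was at 81.9 CPM in BFP+ against 6.2 CPM in BFP- DCs. Among the captures, 21 barcode sequences occurred in both after filtering.

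Most DCs carried too few type markers for a lineage call and are named untyped (3735 MC903 and 5365 untreated DCs). The rest were Langerhans-gated (188 and 147), cDC1-gated (41 and 58) and cDC2-gated (716 and 457). Markers kept out of the gates followed the first and last of these: Mfge8 and Xlr were highest in Langerhans-gated DCs of both captures, and Cd209d and Irf4 in cDC2-gated DCs, while Klf4 was highest in cDC2-gated DCs after MC903 but in cDC1-gated DCs of untreated mice. Of the cDC1 check markers Irf8 was highest in cDC1-gated DCs of both captures, but narrowly after MC903 (498 CPM, against 481 CPM in Langerhans-gated DCs). Laptm4b was highest there in untreated mice only, and Batf3 and Apol10b in neither capture. The cDC1 gate is thus a small set of Xcr1, Clec9a, Cadm1, Tlr3 or Itgae cells and not all mature cDC1s. A single MC903 barcode in the Langerhans gate went against its name: 101316 of its 162867 UMIs were salivary gland transcripts. It is kept below, and Langerhans-gated values are also given without the 27 MC903 DCs and 1 untreated DC that held 100 or more salivary gland UMIs, 2 of which were Langerhans-gated.

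Other cell types' transcripts differed between the captures as well. In DCs, the 3 neutrophil markers summed to 2.76 CPM after MC903 and to 160 CPM in untreated mice, with Retnlg at 0 after MC903. The 6 monocyte or macrophage markers summed to 190 and 366 CPM, the 6 T cell markers to 8.08 and 41.5 CPM, and the 5 B cell markers to 9.73 and 35.0 CPM, each with all markers detected. The 6 stromal or endothelial markers summed to 2.72 and 9.69 CPM, with Pdpn at 0 after MC903, and the 3 mast cell markers to 0.302 and 7.05 CPM. The 5 salivary gland markers went the other way, with 2378 CPM after MC903 and 67.3 CPM in untreated DCs, where Dcpp2 and Dcpp3 were at 0. A single barcode held 101316 of their 118089 UMIs after MC903, and another held 1411 of 1576 in untreated DCs. The 5 keratinocyte markers were near 0 in both (4.45 and 4.57 CPM, with Krt5 at 0 in untreated DCs). The part of these cell types in the values below was not tested.

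Across all DCs, each of the 5 genes was lower after MC903. Clu stood at 86.1 CPM (interval 83.5 to 88.7) in MC903 DCs, against 448 CPM (439 to 456) in untreated DCs, a log2 ratio of -2.38 (-2.43 to -2.33). Ehf had 10.9 CPM (10.0 to 11.9) in MC903 DCs and 65.1 CPM (61.8 to 68.4) in untreated DCs, a log2 ratio of -2.58 (-2.72 to -2.43). Fxyd2 had 51.0 CPM (49.0 to 53.0) after MC903 and 269 CPM (262 to 275) without it, a log2 ratio of -2.40 (-2.47 to -2.33).

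M1ap and Csf1 differed somewhat less. M1ap had 15.8 CPM (14.7 to 16.9) in MC903 DCs, against 59.7 CPM (56.6 to 62.9) in untreated DCs, a log2 ratio of -1.92 (-2.05 to -1.79). Csf1 had 7.35 CPM (6.62 to 8.14) in MC903 DCs, against 27.2 CPM (25.1 to 29.4) in untreated DCs, a log2 ratio of -1.89 (-2.08 to -1.70). Over all 11335 genes with at least 50 UMIs the median log2 ratio was -0.12. All 5 genes were past a 1.5-fold decrease, as were 4.9% of the 4997 genes with at least 20 CPM in the higher group. The 5 were chosen on this contrast, so nothing is read from that count. Ranked from the lowest ratio among those 4997 genes, Ehf was number 12, Fxyd2 13, Clu 15, M1ap 25 and Csf1 28.

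**Figure D1:**
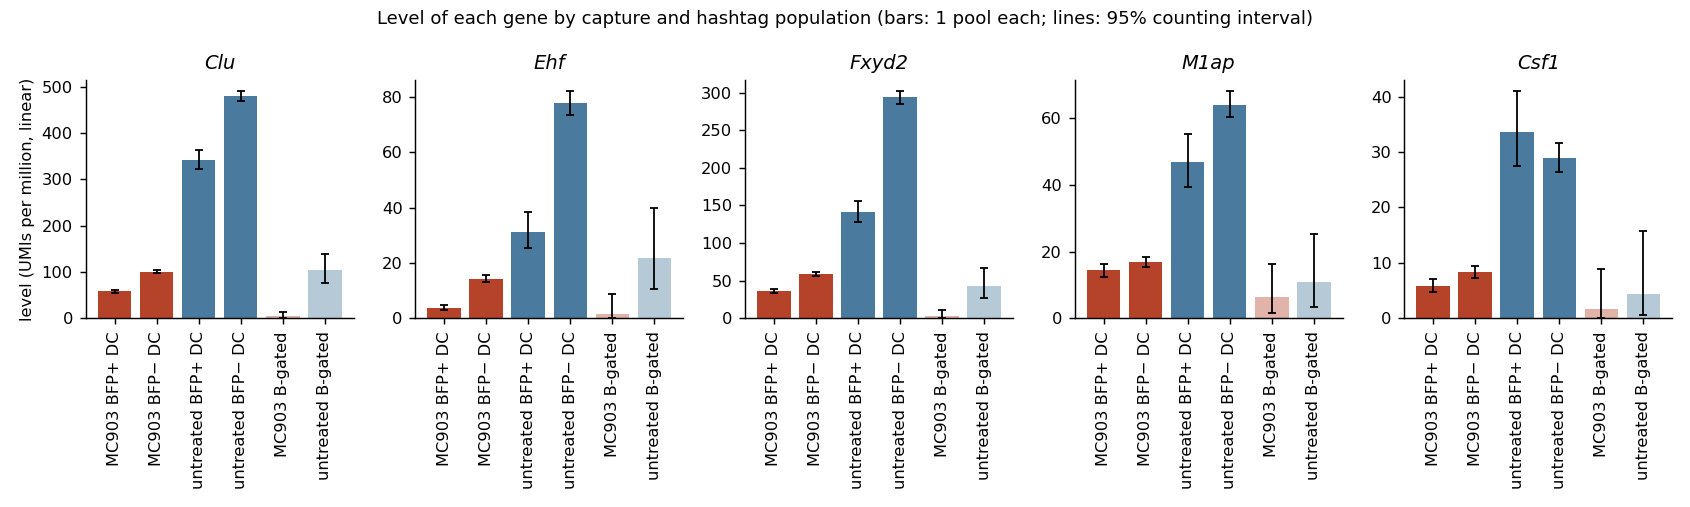
Level of each gene (CPM, linear axis from 0) in the 4 sorted DC pools and in B-gated barcodes with under 3 DC marker UMIs, with 95% counting intervals. Clu is at 58.3 and 100.5 CPM in the MC903 BFP+ and BFP- pools and at 343 and 480 CPM in the untreated BFP+ and BFP- pools.

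After MC903, Clu, Fxyd2 and Ehf were above the level seen in other cells, so they were lower but not gone. Barcodes of other cells were taken as a guide to free RNA, on the untested assumption that those cells do not make these transcripts. Asking for under 3 DC marker UMIs also favours barcodes with little RNA from DCs. All MC903 B-gated barcodes, including those with 3 or more DC marker UMIs, had 19.7 CPM of Clu, 21.1 CPM of Fxyd2 and 5.54 CPM of Ehf. In MC903 B-gated barcodes with under 3 DC marker UMIs, Clu was at 4.80 CPM (0.99 to 14.0), Fxyd2 at 3.20 CPM (0.388 to 11.6) and Ehf at 1.60 CPM (0.0405 to 8.92), all below their intervals in MC903 DCs. The MC903 T-gated barcodes with under 3 DC marker UMIs had 5.69 CPM of Clu (1.55 to 14.6) and 0 UMIs of Fxyd2, Ehf and M1ap, which allows up to 4.27 CPM with a floor of 3 counts. For M1ap the other cells differed: 6.40 CPM (1.74 to 16.4) in B-gated barcodes overlapped the MC903 DC interval, while the limit in T-gated barcodes lay below it. Csf1, at 1.60 CPM (0.0405 to 8.92) in B-gated and 1.42 CPM (0.036 to 7.93) in T-gated barcodes, overlapped the MC903 DC interval in both, so a level above free RNA was not detectable for it at this depth. The same holds for Ehf in the MC903 BFP+ pool alone, at 3.75 CPM.

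The untreated capture gave higher levels of Clu, Fxyd2 and Ehf in B-gated barcodes. Its B-gated barcodes with under 3 DC marker UMIs had 104 CPM of Clu (76.9 to 138), 43.5 CPM of Fxyd2 (26.6 to 67.2), 21.7 CPM of Ehf (10.4 to 40.0), 10.9 CPM of M1ap (3.53 to 25.4) and 4.35 CPM of Csf1 (0.527 to 15.7). Each interval is below that of the same gene in untreated DCs, but that of Ehf overlaps the untreated BFP+ pool (25.3 to 38.4 CPM). The untreated T-gated barcodes with under 3 DC marker UMIs had only 25.1 CPM of Clu (12.5 to 45.0), below the B-gated interval. They also had 22.8 CPM of Fxyd2 (11.0 to 42.0), 2.28 CPM of Ehf (0.0578 to 12.7), 6.85 CPM of M1ap (1.41 to 20.03) and 2.28 CPM of Csf1 (0.0578 to 12.7), so a single free RNA level cannot be given for the capture. When the B-gated levels were subtracted from the DCs of their own captures, the log2 ratios of MC903 over untreated were -2.38 for M1ap, -2.24 for Fxyd2, -2.22 for Ehf, -2.08 for Clu and -1.99 for Csf1. With the T-gated levels subtracted they were -1.74 for M1ap, -2.27 for Fxyd2, -2.52 for Ehf, -2.39 for Clu and -2.07 for Csf1.

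Clu, the secreted chaperone, had 58.3 CPM (54.6 to 62.2) in MC903 BFP+ and 100.5 CPM (97.1 to 104) in MC903 BFP- DCs, against 343 CPM (322 to 364) in untreated BFP+ and 480 CPM (469 to 491) in untreated BFP- DCs. Both MC903 pools lay below both untreated pools, and within each capture the BFP+ pool was the lower. The log2 ratio of MC903 over untreated was -2.56 (-2.69 to -2.42) in BFP+ and -2.26 (-2.32 to -2.20) in BFP- DCs.

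The order of DC types for Clu differed between the captures. After MC903 the highest level was in cDC1-gated DCs (131 CPM, 101 to 168) and then Langerhans-gated DCs (117 CPM, 103 to 134), whose intervals overlap. Untyped DCs (92.0 CPM, 88.9 to 95.2) and cDC2-gated DCs (57.9 CPM, 53.4 to 62.6) were below them. In untreated mice untyped DCs came first (475 CPM, 465 to 484), before cDC2-gated (343 CPM, 321 to 367), Langerhans-gated (277 CPM, 245 to 311) and cDC1-gated DCs (218 CPM, 174 to 269), the last 2 of which overlap. A single cDC1-gated cell held 32 of the 63 MC903 cDC1 UMIs of Clu, and without it the level there was 65.8 CPM (44.7 to 93.4), which overlaps untyped DCs. Without the barcodes rich in salivary gland transcripts the MC903 Langerhans-gated level of Clu was 129 CPM (113 to 147).

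Ehf, the ETS factor, had 3.75 CPM (2.84 to 4.84) in MC903 BFP+ and 14.3 CPM (13 to 15.7) in MC903 BFP- DCs, against 31.3 CPM (25.3 to 38.4) in untreated BFP+ and 77.6 CPM (73.4 to 82.1) in untreated BFP- DCs. The intervals of the 4 pools do not overlap. The log2 ratio of MC903 over untreated was -3.06 (-3.56 to -2.58) in BFP+ and -2.44 (-2.60 to -2.28) in BFP- DCs.

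Ehf was highest in cDC2-gated DCs and lowest, in untreated mice, in Langerhans-gated DCs. After MC903 it had 14.5 CPM (12.3 to 16.9) in cDC2-gated, 10.1 CPM (9.14 to 11.2) in untyped and 8.82 CPM (5.14 to 14.1) in Langerhans-gated DCs, and 0 UMIs in cDC1-gated DCs, which allows up to 6.26 CPM with a floor of 3 counts. The cDC2-gated and Langerhans-gated intervals overlap there, but 9 of the 17 Langerhans-gated UMIs were in the salivary gland barcode. Without the barcodes rich in those transcripts the Langerhans-gated level was 4.56 CPM (1.97 to 8.99), below the cDC2-gated and untyped intervals. In untreated mice it had 107 CPM (94.3 to 120) in cDC2-gated, 63.4 CPM (59.9 to 67.0) in untyped, 35.9 CPM (19.6 to 60.2) in cDC1-gated and 5.84 CPM (2.14 to 12.7) in Langerhans-gated DCs. Within untreated mice the log2 ratio of Langerhans-gated over untyped DCs was -3.44 (-4.89 to -2.31), and that of cDC2-gated over untyped DCs 0.75 (0.55 to 0.94). The untreated Langerhans-gated value rests on 6 UMIs, 4 of them in 1 cell. It lies below the 21.7 CPM of B-gated barcodes and overlaps the interval of T-gated barcodes, so a level above free RNA was not detectable there. In untreated cDC1-gated DCs 9 of 14 UMIs came from 1 cell, without which the level was 13.3 CPM. The interval of Ehf there, 19.6 to 60.2 CPM with that cell, overlaps that of B-gated barcodes (10.4 to 40.0 CPM).

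Fxyd2, the sodium pump regulator, had 36.2 CPM (33.3 to 39.4) in MC903 BFP+ and 58.7 CPM (56.1 to 61.4) in MC903 BFP- DCs, against 142 CPM (128 to 156) in untreated BFP+ and 293 CPM (285 to 302) in untreated BFP- DCs. As for Clu, the MC903 pools were below the untreated pools and the BFP+ pools below their BFP- partners. The log2 ratio of MC903 over untreated was -1.97 (-2.15 to -1.78) in BFP+ and -2.32 (-2.40 to -2.24) in BFP- DCs.

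Langerhans-gated DCs had the highest Fxyd2 level after MC903, at 138 CPM (122 to 156), ahead of cDC2-gated DCs at 55.6 CPM (51.2 to 60.3), untyped DCs at 45.1 CPM (43.0 to 47.4) and cDC1-gated DCs at 43.8 CPM (27.1 to 66.9). The cDC1-gated interval overlaps those of cDC2-gated and untyped DCs. In untreated mice cDC2-gated DCs had 306 CPM (284 to 328), untyped 268 CPM (261 to 276), Langerhans-gated 263 CPM (233 to 296) and cDC1-gated 61.5 CPM (39.4 to 91.5). The cDC1-gated interval overlaps those of untreated B-gated (26.6 to 67.2 CPM) and T-gated barcodes (11.0 to 42.0 CPM) with under 3 DC marker UMIs. A level above those barcodes was not detectable there. Of the 266 MC903 Langerhans-gated UMIs, 94 came from 1 cell, and without it the level was 90.04 CPM, still above the other types. It was 152 CPM (134 to 171) without the barcodes rich in salivary gland transcripts.

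M1ap, the meiosis gene, had 14.3 CPM (12.5 to 16.4) in MC903 BFP+ and 16.7 CPM (15.4 to 18.2) in MC903 BFP- DCs, against 46.8 CPM (39.4 to 55.3) in untreated BFP+ and 64.0 CPM (60.1 to 68.0) in untreated BFP- DCs. Here the MC903 pools overlap each other and both lie below the untreated pools. After MC903 its levels in the 4 types ran from 15.3 CPM (14.0 to 16.6) in untyped to 17.6 CPM (15.1 to 20.3) in cDC2-gated DCs, all overlapping. Langerhans-gated DCs had 16.0 CPM (10.6 to 23.1) without the barcodes rich in salivary gland transcripts. In untreated mice untyped DCs had 63.2 CPM (59.8 to 66.9), cDC2-gated 53.1 CPM (44.5 to 62.9), cDC1-gated 30.7 CPM (15.9 to 53.7) and Langerhans-gated 19.5 CPM (11.9 to 30.1).

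Csf1, the macrophage growth factor, had 5.81 CPM (4.67 to 7.14) in MC903 BFP+ and 8.33 CPM (7.36 to 9.39) in MC903 BFP- DCs, against 33.7 CPM (27.4 to 41.0) in untreated BFP+ and 28.9 CPM (26.3 to 31.6) in untreated BFP- DCs. The untreated pools overlap each other, and the log2 ratio of MC903 over untreated was -2.54 (-2.96 to -2.11) in BFP+ and -1.79 (-2.02 to -1.57) in BFP- DCs. After MC903, cDC2-gated DCs had 10.5 CPM (8.63 to 12.6), Langerhans-gated 6.75 CPM (3.59 to 11.5; 5.70 without the barcodes rich in salivary gland transcripts), untyped 6.54 CPM (5.74 to 7.43) and cDC1-gated 2.09 CPM from 1 UMI. In untreated mice the highest value was in cDC1-gated DCs (51.2 CPM, 31.3 to 79.1), but 11 of those 20 UMIs came from 1 cell, without which the level was 23.4 CPM. Untyped (27.8 CPM, 25.5 to 30.3), cDC2-gated (21.4 CPM, 16.1 to 27.9) and Langerhans-gated DCs (20.5 CPM, 12.7 to 31.3) overlap in untreated mice. The Langerhans-gated interval also overlaps that of untreated B-gated barcodes with under 3 DC marker UMIs (0.527 to 15.7 CPM).

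All 5 genes are protein coding in GENCODE M21 on GRCm38. Clu lies on the plus strand at chr14:65968483-65981547, Ehf on the minus strand at chr2:103263433-103303278, Fxyd2 on the plus strand at chr9:45399669-45410278, M1ap on the plus strand at chr6:82946902-83030309 and Csf1 on the minus strand at chr3:107741048-107760469. Only M1ap overlaps other annotated genes, 3 in number, none of which has a row in the matrices.

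Promoter windows of 2 of the 5 genes, M1ap and Csf1, were matched by symbol in the RefSeq promoter table (GRCm38.p6). The 250 bases before each start in that table are shown because both genes were lower after MC903, the difference they were chosen for. Their levels did not follow each other in every set of groups: Pearson r of log2(CPM + 1) was 0.79 over 9 groups of both captures, 0.84 over 4 untreated groups and -0.06 over 5 MC903 groups, which share captures and are no independent samples. The RefSeq start of M1ap lies inside the GENCODE gene, so the last 20 bases of its window are within the GENCODE M1ap, while for Csf1 the starts are the same. Each reads 5′ to 3′ on the gene's own strand. In Csf1 (chr3:107760470-107760719, minus strand) the capitals mark the match to the NF-kappaB motif on the opposite strand, and in M1ap (chr6:82946672-82946921, plus strand) the match to the nuclear receptor motif AGTTCA on the opposite strand.
Csf1: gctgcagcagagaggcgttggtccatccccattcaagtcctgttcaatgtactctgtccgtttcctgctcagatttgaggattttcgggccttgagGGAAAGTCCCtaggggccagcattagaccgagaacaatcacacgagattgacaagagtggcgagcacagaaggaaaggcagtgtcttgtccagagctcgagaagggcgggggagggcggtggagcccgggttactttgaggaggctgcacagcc
M1ap: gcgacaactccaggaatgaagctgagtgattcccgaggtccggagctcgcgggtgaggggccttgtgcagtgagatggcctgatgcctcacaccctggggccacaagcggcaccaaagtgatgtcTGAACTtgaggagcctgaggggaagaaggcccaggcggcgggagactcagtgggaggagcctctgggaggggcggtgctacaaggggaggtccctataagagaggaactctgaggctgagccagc

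The NF-kappaB letters occurred, on either strand, in 0.94% of the same window of 27025 genes, and AGTTCA in 11.9%. The ETS core GGAA matched 3 times in the Csf1 and 4 times in the M1ap window, but 93.4% of all windows hold at least 1 match, and 1 of the Csf1 matches lies within the NF-kappaB match. The GC box GGGCGG matched 2 times in Csf1 and 1 time in M1ap (32.9% of windows), and in Csf1 these matches do not overlap the NF-kappaB match. Neither window held AGGTCA (13.8% of windows), GGTTCA (8.87%), the AP-1 motif TGANTCA (6.87%) or the TATA box TATAAA (13%). These are matches of letters and not binding sites.

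Within DC types the contrast with untreated mice was uneven. The type gates ask for 2 UMIs in cells that were not thinned, so like-named gates can hold unlike cells. In cDC2-gated DCs Cd209a had 30.1 CPM after MC903 and 206 CPM in untreated mice, and Cd209d 52.5 and 377 CPM. Irf4 went the other way (123 and 71.4 CPM). In Langerhans-gated DCs Cd207 had 27.5 and 124 CPM and Mfge8 279 and 705 CPM, while Cldn1 had 111 and 85.7 CPM. The part of this in the ratios was not tested. In untyped DCs all 5 genes were at least 1.5-fold lower after MC903, with log2 ratios from -2.64 (Ehf) to -2.05 (M1ap), beside 4.28% of the 4959 genes tested there. In cDC2-gated DCs all 5 were also past 1.5-fold, from -2.88 for Ehf to -1.03 for Csf1, but so were 14.7% of 5227 genes.

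In Langerhans-gated DCs the ratios of Clu, Fxyd2, M1ap and Ehf were nearer to 0 than in untyped DCs, while that of Csf1 lay between the untyped (-2.09) and cDC2-gated (-1.03) values. Clu had a log2 ratio of -1.24 (-1.50 to -0.98) and Fxyd2 of -0.93 (-1.18 to -0.68), both past 1.5-fold lower beside 11% of 5120 genes. Csf1 had -1.60 (-2.72 to -0.53) from 13 MC903 and 21 untreated UMIs, too few to be among the genes tested there. The M1ap ratio of -0.32 (-1.19 to 0.57) has an interval that includes 0, and its untreated level there was not detectable above B- or T-gated barcodes. For Ehf the value was 0.59 (-0.82 to 2.23), from 17 MC903 and 6 untreated UMIs, and 9 of the 17 sat in the salivary gland barcode. Without the barcodes rich in salivary gland transcripts Csf1 was at -1.84 (-3.09 to -0.69), Clu at -1.10, Fxyd2 at -0.79, Ehf at -0.36 (-2.07 to 1.45) and M1ap at -0.29 (-1.17 to 0.62).

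The cDC1-gated DCs were too few for most of the genes. Clu had a log2 ratio of -0.73 (-1.22 to -0.24), and it alone reached the 50 UMIs asked of a tested gene, where 6.93% of 2279 genes were past 1.5-fold lower. Fxyd2 had -0.49 (-1.41 to 0.42) and M1ap -0.88 (-2.38 to 0.53), with intervals that include 0. The untreated cDC1-gated levels of both overlap those of B- and T-gated barcodes. Csf1 had 1 UMI after MC903 and 20 in untreated mice, a log2 ratio of -4.62 (-9.99 to -1.97). Ehf had 0 UMIs after MC903 and 14 in untreated mice, so its ratio is bounded at -2.52 or lower with a floor of 3 counts over the MC903 group. The difference between types was not tested, since each type comes from the same pools.

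**Figure D2:**
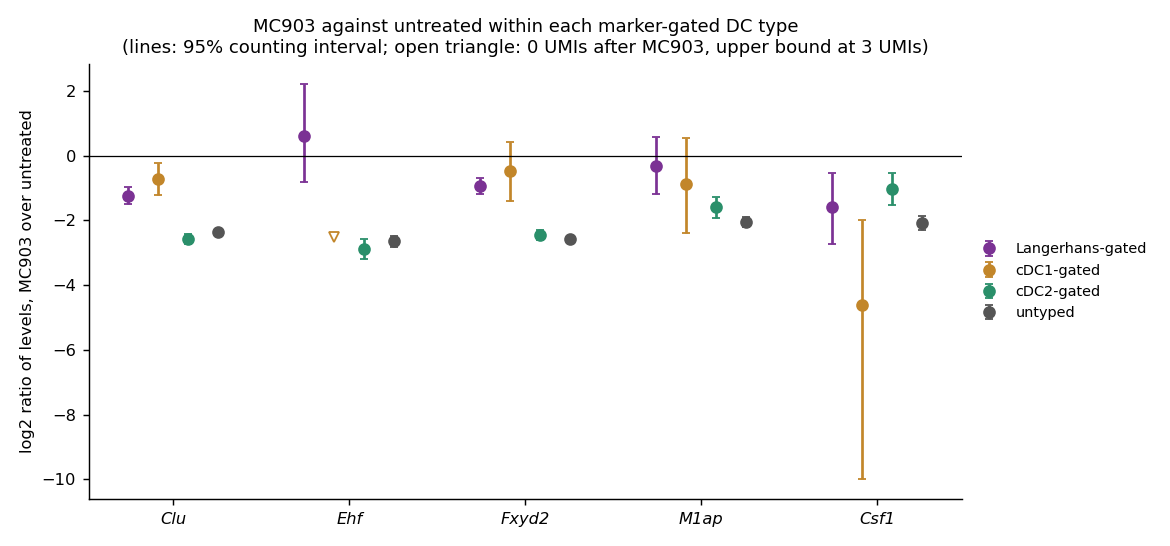
Log2 ratio of levels, MC903 over untreated, for each gene in each marker-gated DC type, with 95% counting intervals. Untyped and cDC2-gated DCs lie between -2.88 and -1.03 for all 5 genes, while Langerhans-gated DCs lie nearer to 0 for Clu, Fxyd2, M1ap and Ehf.

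Sorting by the OX40L reporter gives a contrast other than the one that chose the genes, in which both groups shared a capture and lane. The pools were unlike in depth, with a median of 10270 UMIs in MC903 BFP+ and 9585 in MC903 BFP- DCs, and 4779.5 in untreated BFP+ and 2660 in untreated BFP- DCs. No dominant hashtag was found for 125 MC903 and 1484 untreated DCs, which are in neither pool. Of the 589 reporter UMIs in all untreated DCs, 243 were in the BFP+ and 100 in the BFP- pool. The rest were in DCs without a dominant hashtag. Tnfsf4 was alike, with 87 and 66 of 232 UMIs in the untreated BFP+ and BFP- pools. The untreated BFP+ pool thus leaves out many DCs with reporter transcripts. After MC903, Ehf was lower in BFP+ than in BFP- DCs by a log2 ratio of -1.93 (-2.35 to -1.54), Clu by -0.79 (-0.89 to -0.68) and Fxyd2 by -0.70 (-0.84 to -0.56). Csf1 was at -0.52 (-0.88 to -0.17) and M1ap at -0.22 (-0.46 to 0.00). Of the 2 genes with at least 20 CPM in the higher pool, Clu and Fxyd2, both were past 1.5-fold lower, against 1.71% of 4788 genes. With no minimum beyond 50 UMIs over both pools, 3 of the 5 were past it, against 5.98% of 10538 genes. The gene added was Ehf, whose MC903 BFP+ level of 3.75 CPM was not detectable above that of other cells' barcodes.

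In untreated mice the same order of genes did not hold for all. Ehf was again lower in BFP+ DCs, with a log2 ratio of -1.31 (-1.63 to -1.0), and Fxyd2 was at -1.05 (-1.20 to -0.91). Clu was at -0.49 (-0.58 to -0.39) and M1ap at -0.45 (-0.72 to -0.19), both short of 1.5-fold. Csf1 was at 0.22 (-0.10 to 0.54), which includes 0, and 18 of its 100 BFP+ UMIs were in 1 DC. So 2 of 5 genes were past 1.5-fold lower, against 4.11% of 5035 genes. These values depend on how hashtags are called: HTODemux, which placed 1770 untreated DCs as BFP+ and 736 as BFP-, gave Fxyd2 -0.29 (-0.39 to -0.18), no longer past 1.5-fold, and Csf1 -0.59 (-0.88 to -0.30), with the sign turned. Under the same calls Ehf was at -1.19, Clu at -0.69 and M1ap at -0.31. Among untreated DCs of 4000 to 8000 UMIs (84 BFP+ and 534 BFP-) Fxyd2 was at -1.70 (-2.14 to -1.28) and Csf1 at 0.95 (0.31 to 1.55).

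The untyped DCs alone gave Ehf -2.28, Clu -0.83, Fxyd2 -0.47, M1ap -0.13 and Csf1 -1.03 in MC903 mice, and Ehf -1.48, Fxyd2 -1.16, M1ap -0.58, Clu -0.56 and Csf1 -0.14 in untreated mice. In cDC2-gated DCs after MC903 the values were -1.15 for Ehf (-1.88 to -0.48), -0.81 for Fxyd2 (-1.12 to -0.51), -0.73 for Clu (-1.04 to -0.43), -0.65 for M1ap (-1.21 to -0.12) and 0.49 for Csf1 (-0.12 to 1.08). Only 23 untreated cDC2-gated DCs were BFP+, and there the intervals of all 5 genes include 0. A single BFP+ cDC2-gated DC held 15 Csf1 UMIs after MC903, and without it Csf1 was at -0.19 (-0.91 to 0.50) in MC903 cDC2-gated DCs and at -0.78 (-1.17 to -0.41) in all MC903 DCs. The BFP+ and BFP- pools also differed in other cells' transcripts. Salivary gland markers summed to 320 CPM in MC903 BFP+ and to 3516 CPM in MC903 BFP- DCs. Of the 112752 salivary gland UMIs in MC903 BFP- DCs, 101316 were in 1 barcode, so the difference in this sum came mostly from it. Without the barcodes rich in these transcripts Ehf was at -1.91 and Clu at -0.78. Neutrophil markers summed to 8.46 CPM in MC903 BFP+ and 0.187 CPM in MC903 BFP- DCs, and to 20.2 CPM in untreated BFP+ and 156 CPM in untreated BFP- DCs. T cell markers summed to 17.9 CPM in untreated BFP+ and 40.7 CPM in untreated BFP- DCs, and B cell markers to 15.5 and 34.5 CPM, and their part in the contrast was not tested.

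**Figure D3:**
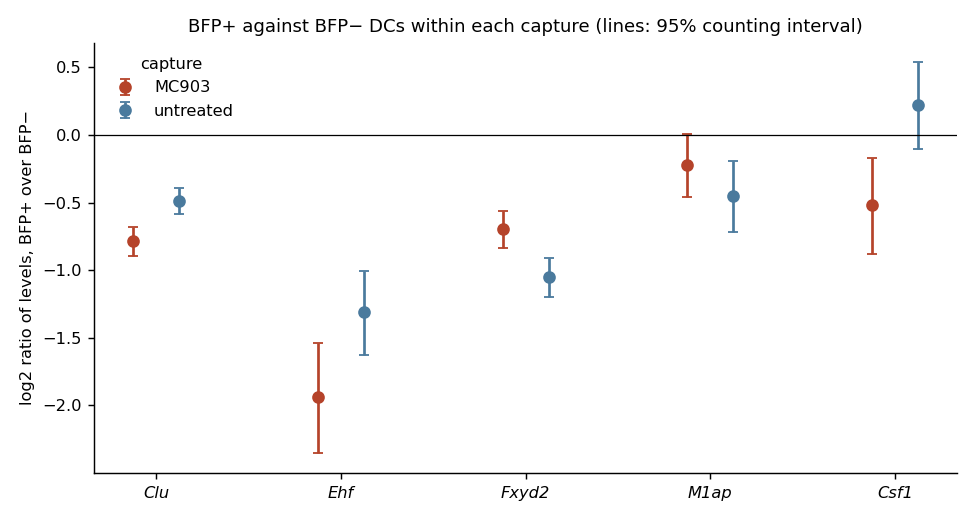
Log2 ratio of levels, BFP+ over BFP- DCs, in the MC903 and the untreated capture, with 95% counting intervals. Ehf is lowest in both captures (-1.93 after MC903 and -1.31 in untreated mice), and the interval of Csf1 in untreated mice includes 0.

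The lower levels went with fewer cells holding a transcript. At 2000 UMIs per cell, 10.3% of 4631 MC903 DCs (9.44 to 11.2) and 41.4% of 4957 untreated DCs (40.0 to 42.8) held a UMI of Clu. For Fxyd2 the shares were 7.60% (6.85 to 8.40) after MC903 and 33.6% (32.3 to 34.9) in untreated mice. Ehf was found in 1.92% and 10.1%, M1ap in 2.83% and 11.0%, and Csf1 in 1.34% and 4.24% of MC903 and untreated DCs. Thinning left out 49 MC903 and 1070 untreated DCs. Without thinning, where MC903 cells were deeper, the shares were 22.4% and 49.2% for Clu, 27.0% and 42.7% for Fxyd2, 5.90% and 14.9% for Ehf, 11.9% and 16.2% for M1ap, and 4.42% and 6.74% for Csf1.

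As a background for these shares, B-gated barcodes with under 3 DC marker UMIs were thinned in the same way (median 2974 UMIs before thinning in MC903 and 2024 in untreated barcodes). Of 180 MC903 B-gated barcodes 0 held a UMI of Clu, which allows a share of up to 1.67% with a floor of 3 counts, and 1.11% held Fxyd2. Of 89 untreated B-gated barcodes 15.7% (8.88 to 25) held Clu, 5.62% (1.85 to 12.6) Fxyd2 and 3.37% (0.701 to 9.54) Ehf. The T-gated barcodes of the untreated capture held Clu in 1.27% and Fxyd2 in 2.53% of 79, and Ehf in 0 of 79, which allows up to 3.797%. The Clu and Fxyd2 shares lie below those of untreated DCs in both cell types. For Ehf the B-gated interval overlaps that of untreated DCs (9.24 to 10.9%), while the T-gated limit lies below it.

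In untreated DCs Clu was found more often in cells that held another of the genes. It was in 55.7% (51.2 to 60.1) of the DCs with Ehf and in 39.8% (38.4 to 41.2) of those without it. Clu was likewise found in 49.7% (47.3 to 52.2) of DCs with Fxyd2 and 37.2% (35.5 to 38.9) without it, and in 51.4% (44.5 to 58.4) of DCs with Csf1 and 41.0% (39.5 to 42.4) without it. After MC903, Clu was in 32.6% (23.0 to 43.3) of the 89 DCs with Ehf and in 9.86% (9.01 to 10.8) of those without it, and in 18.5% (14.6 to 22.9) of DCs with Fxyd2 and 9.63% (8.76 to 10.6) without it. For M1ap and Csf1 the intervals with and without them overlap after MC903.

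Counted per cell, none of the 5 genes was found in 79.2% of MC903 DCs and in 34.8% of untreated DCs. At least 3 of them were found in 15 of 4631 MC903 DCs (0.324%, 0.181 to 0.534) and in 328 of 4957 untreated DCs (6.62%, 5.94 to 7.35). Of those 328 untreated cells 303 were untyped (92.4%), 23 cDC2-gated (7.01%), 2 Langerhans-gated and 0 cDC1-gated. By hashtag 16 were BFP+ (4.88%), 255 BFP- (77.7%) and 57 without a dominant hashtag (17.4%). Among the 1726 untreated DCs with none of the genes, 85.3% were untyped, 9.56% cDC2-gated, 12.6% BFP+, 61.5% BFP- and 25.8% without a dominant hashtag. Over all 6027 untreated DCs, which include 1070 with too few UMIs for thinning, these shares were 89.0%, 7.58%, 7.43%, 67.9% and 24.6%. Of the 4957 thinned untreated DCs, 4371 were untyped, 395 cDC2-gated, 400 BFP+ and 3349 BFP-.

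**Figure D4:**
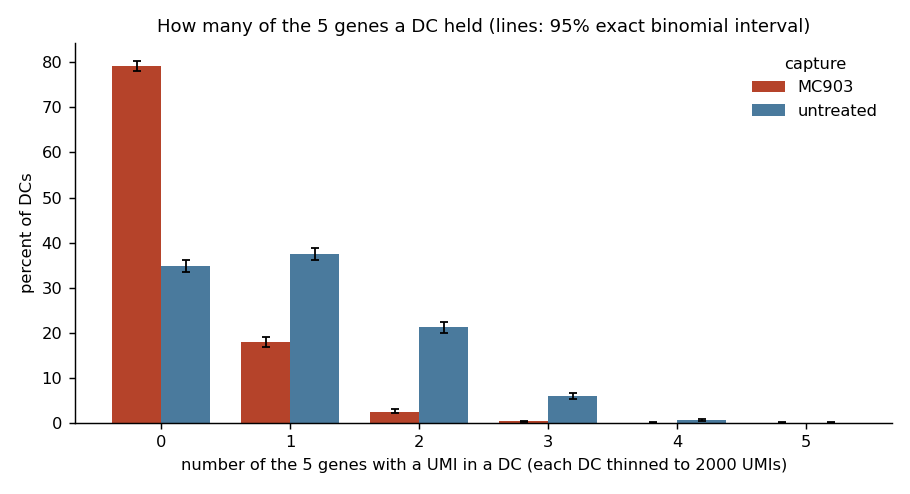
Percent of DCs in which 0 to 5 of the genes had a UMI, after thinning each DC to 2000 UMIs, with exact binomial 95% intervals. None was found in 79.2% of MC903 DCs and 34.8% of untreated DCs, and 3 or more in 0.324% and 6.62%.

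Cell depth differed between the captures, so levels were also compared among DCs of like depth. In DCs of 4000 to 8000 UMIs (1168 MC903 and 808 untreated), Clu had 116 and 415 CPM, Fxyd2 39.4 and 265 CPM, Ehf 11.5 and 65.2 CPM, M1ap 13.6 and 48.6 CPM and Csf1 9.73 and 31.4 CPM, in MC903 and untreated DCs in that order. MC903 DCs had the lower level of each gene. Among the 226 MC903 and 3492 untreated DCs of 2000 to 4000 UMIs, Clu, Ehf, Fxyd2 and M1ap were lower after MC903 too, while Csf1 had 31.7 CPM (20.1 to 47.5) in MC903 DCs against 23.0 CPM (20.04 to 26.3) in untreated DCs. Of the 23 Csf1 UMIs in those MC903 cells, 15 came from 1 cDC2-gated BFP+ DC of 3684 UMIs. Without it Csf1 was at 11.1 CPM in MC903 DCs against 23.0 CPM in untreated DCs, a log2 ratio of -1.06 (-2.29 to -0.05).

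**Figure D5:**
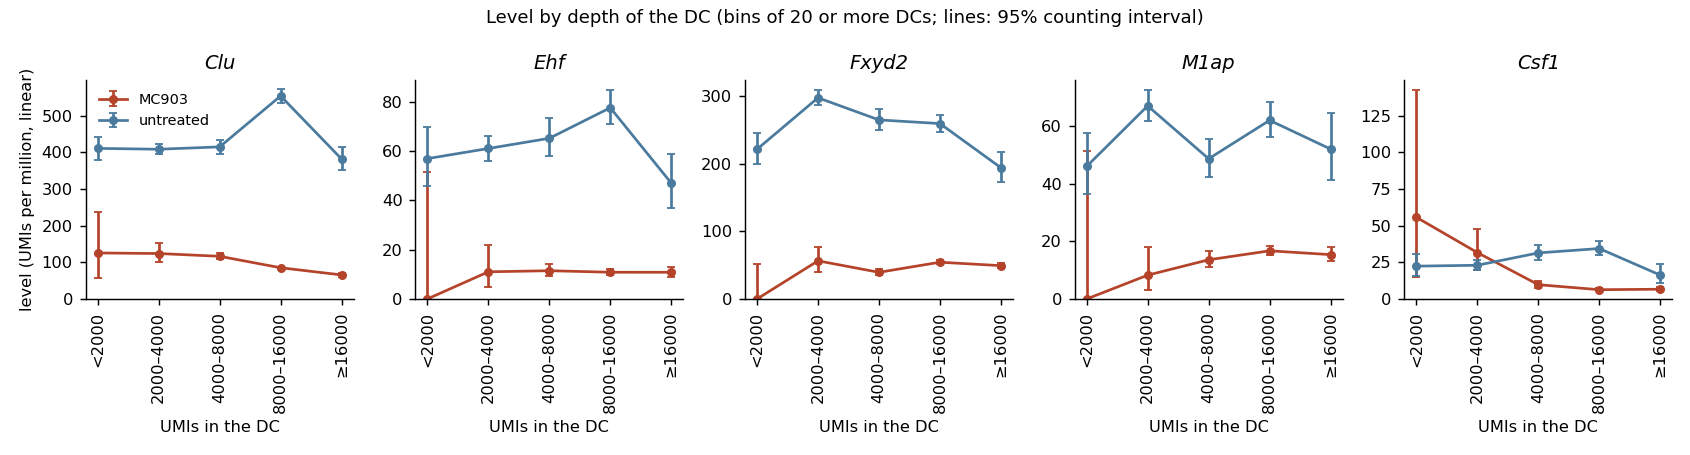
Level of each gene (CPM, linear axis from 0) against the depth of the DC, with 95% counting intervals, for MC903 and untreated DCs. MC903 lies below untreated in all bins from 4000 UMIs for the 5 genes, while Csf1 crosses over in the shallow bins (31.7 and 23.0 CPM at 2000 to 4000 UMIs). The Csf1 intervals overlap in those bins. At 2000 to 4000 UMIs 15 of its 23 MC903 UMIs were in 1 DC, without which MC903 was at 11.1 CPM.

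Relatives and partners of the 5 genes were followed in lists written from general knowledge. Counts here use genes with at least 50 UMIs, of which 14.7% were 1.5-fold or more lower and 5.1% higher after MC903, and leave the 5 genes out. Of 7 measured colony-stimulating factor ligands and receptors 2 were lower and 0 higher, with a median log2 ratio of -0.39. Csf1r, the receptor of Csf1, had 4.95 CPM in MC903 and 13 CPM in untreated DCs (log2 ratio -1.39). It is also 1 of the monocyte or macrophage markers, whose sum was lower in MC903 DCs, and the part of those cells was not tested. Flt3l, the ligand of the DC growth factor receptor Flt3, was at -1.0, the stem cell factor receptor Kit at -0.46 and Csf2rb2, a beta chain related to the receptors of IL-3 and GM-CSF, at -0.39.

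Among 15 other ETS factors 2 were lower and 0 higher, with a median of -0.13, close to that of all genes. Ets1 had 4.71 CPM in MC903 and 24.8 CPM in untreated DCs (-2.40), and Fli1 1.29 and 5.12 CPM (-1.99). Both are abundant in lymphocytes, whose markers were also lower in MC903 DCs, and the part of those cells was not tested. Elk4 was at -0.48 and Etv6 at 0.48.

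In the FXYD family and the sodium pump subunits 1 of 6 was higher and 1 lower, with a median of -0.02. Fxyd3, an epithelial family member, had 93 UMIs in MC903 DCs and 0 in untreated DCs, a log2 ratio of at least 3.87 with a floor of 3 counts over the untreated group. Of the 93 UMIs 91 were in BFP- and 2 in BFP+ DCs, and the salivary gland markers were likewise higher in MC903 and in BFP- DCs. Most salivary gland UMIs of the MC903 BFP- DCs were in 1 barcode. Without the 27 MC903 barcodes rich in salivary gland transcripts 9 Fxyd3 UMIs were left, under the 50 asked of a measured gene. Fxyd4 was at -0.70 and Fxyd5 at -0.40.

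Of 6 clusterin receptors and extracellular chaperones 4 were lower and 1 higher, with a median of -0.73. Lrp8, a receptor that binds clusterin and apolipoprotein E, had 58.6 CPM in MC903 and 28.5 CPM in untreated DCs (1.04). Apoe, the lipid carrier, had 104.5 and 193 CPM (-0.89), the heparan sulphate carrier Sdc4 104 and 187 CPM (-0.84) and the scavenger receptor Lrp1 2.15 and 4.18 CPM (-0.96).

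Only 3 other meiotic recombination genes reached 50 UMIs, of which Spo11, the enzyme that cuts meiotic DNA, was at 1.07 and Mlh3 at 0.04. In the CXC chemokine family 5 of 8 were lower and 1 higher, with a median of -1.57. Cxcl1, which attracts neutrophils, had 64.3 CPM in MC903 and 237 CPM in untreated DCs (-1.88), and Cxcl13, Cxcl12 and Cxcl3 were at -2.33, -2.30 and -1.81 from at most 249 UMIs in a group. Stromal or endothelial markers were also lower in MC903 DCs, and the part of other cells in these values was not tested. Of 14 immediate early and heat shock genes, which respond quickly to stimulation and stress, 3 were lower and 1 higher, with a median of -0.44. Jun was at 0.68, Nr4a1 at -1.10, Hspa1b at -0.77 and Atf3 at -0.69.

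In BFP+ DCs alone the medians of some of these lists, MC903 over untreated, were nearer to 0 than in all DCs, and those of others were not. There 8.15% of 9242 genes were 1.5-fold or more lower and 6.15% higher. Of 5 CXC chemokines measured there 2 were lower and 1 higher (median -0.24), of 4 clusterin receptors and chaperones 1 was lower and 1 higher (-0.21), and of 14 immediate early and heat shock genes 1 was lower and 1 higher (-0.07). In BFP- DCs the median was -1.49 over 8 CXC chemokines and -0.39 over 5 clusterin receptors and chaperones. It was -0.52 over 14 immediate early and heat shock genes. For the first 2 lists the medians of the pools are thus over unlike sets of genes. Cxcl1 itself went the other way, with a log2 ratio of -2.61 in BFP+ and -1.74 in BFP- DCs. The ETS median was also nearer to 0 in BFP+ DCs (-0.05 over 14 genes, against -0.17 over 15 in BFP- DCs). The remaining lists were not. Colony-stimulating factor genes were at -0.41 in BFP+ and -0.33 in BFP- DCs. The FXYD and sodium pump genes were at 0.07 over 4 and -0.05 over 6 genes. The 1 meiotic gene measured in BFP+ DCs was at 0.85. The difference between the pools was not tested.

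The genes with the most similar profile to each member were sought over the 9 groups of capture, population and DC type with at least 50 cells and 100000 UMIs, among 5801 genes. Clu was most like Pan3, Tmf1 and Ddhd1 (Pearson r of log2(CPM + 1) 0.97 each), and Ehf most like Hnrnph2 (0.96), Pid1 (0.95) and Vps13d (0.92). Fxyd2 was most like Arl5b (0.99), Nop10 (0.96) and Zc3h12c (0.96). M1ap was most like Scube3 (0.93), Alkbh5 (0.93) and Eef2 (0.93), and Csf1 most like Adam10 (0.92), Snrk (0.91) and Creg1 (0.91). The 9 groups come from 2 captures and are not independent, and over the 4 untreated groups alone 1 of the 15 pairs, Ehf with Vps13d, was found again. Scube3, which encodes a secreted protein, also had a large difference of its own, with 4.97 CPM in MC903 and 22.5 CPM in untreated DCs (log2 ratio -2.18).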

How the data were processed

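Gene and hashtag UMI counts per barcode were deposited by the authors as raw counts. The file headers name Cell Ranger 3.1.0, and the submitters' processing notes name GRCm38 (mm10). The filter on barcodes was 500 genes or more and no more than 10% mitochondrial UMIs. A barcode was placed as BFP+ or BFP- when at least 80% of at least 20 hashtag counts were of that hashtag, because HTODemux (Seurat 5.3.0) placed untreated barcodes with mostly the BFP- hashtag as BFP+. No doublet caller was run, and barcodes with both T or B and DC markers were kept out of the DCs. A DC was given a type with at least 2 UMIs of that type's markers and more than 2 times those of the other types. Counts were summed per group and divided by the group's total. Ratios carry exact conditional intervals, levels exact Poisson intervals and shares exact Clopper-Pearson intervals, at 95%, for counting error only, and limits at 0 UMIs are those of 3 counts. Group totals were 49655167 UMIs in MC903 DCs and 23420877 UMIs in untreated DCs. A gene was read in a contrast with at least 50 UMIs over both groups and 20 CPM in the higher group, unless stated.

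The 5 genes, the gene lists and the rules were chosen with earlier results of these data known. Named genes were the 5 members, up to 4 measured genes of each list with the largest MC903 difference, and the 3 genes most like each member. Of the list genes that this rule names, 2 are not reported here. The interval code was tested on simulated data. Alternatives were other filters on barcodes and hashtags, edgeR 4.0.16 TMM scaling, thinning, subtraction of free RNA, and DCs of like depth. Analyses used Python 3.11.15, scipy 1.17.1 and R 4.3.3.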

Additional observations from a re-analysis of the deposited data

Results flagged for a closer look

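Ehf had a log2 ratio of MC903 over untreated of 0.59 in Langerhans-gated DCs, opposite in sign to its value in the other DC groups. It rests on 17 MC903 and 6 untreated UMIs, was -0.36 without barcodes rich in salivary gland transcripts, and the difference between groups was not tested.

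Csf1 ran against its BFP+ over BFP- direction in all MC903 DCs in other groups, with log2 ratios of 0.22 in untreated DCs, 0.49 in MC903 cDC2-gated DCs and 1.10 in untreated cDC2-gated DCs. These differences were not tested, and each interval includes 0. Without the 1 DC that held most Csf1 UMIs in each group the values were 0.28, -0.19 and -2.00, the last from 1 BFP+ UMI. The DC left out for the first value was BFP-, with 20 UMIs. Another DC, which held 18 of the 100 Csf1 UMIs of the untreated BFP+ pool, was kept. The value without that DC was not computed, so the sign of 0.28 may rest on 1 cell.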

How the results depend on the processing

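The median log2 ratio of the 5 genes, MC903 over untreated, was -2.38, and -2.23 with TMM scaling, -2.30 with no DC gate, -2.18 after thinning to 2000 UMIs, -1.74 with the level of all B-gated barcodes subtracted, -2.22 with that of B-gated and -2.27 with that of T-gated barcodes under 3 DC marker UMIs subtracted, and -1.84 in DCs of 4000 to 8000 UMIs. In DCs of 2000 to 4000 UMIs Csf1 turned to 0.46, and 1 DC decided that value (-1.06 without it). The median BFP+ over BFP- ratio after MC903 was -0.70, and -1.19 with all B-gated barcodes subtracted, and Csf1 there turned to 0.31 in DCs of 4000 to 8000 UMIs. In untreated DCs that median was -0.49, and -0.75 with at most 5% mitochondrial UMIs, -0.63 after thinning and in DCs of 4000 to 8000 UMIs, -1.17 and -0.66 with the 2 subtractions of B-gated levels, -0.59 with HTODemux (where Fxyd2 moved to -0.29, losing 1.5-fold, and Csf1 turned to -0.59) and -0.65 with 95% of hashtag counts. The median log2 ratio of shares was -2.01 at 2000 UMIs, -2.21 at 1000 and -1.76 at 4000. With no minimum beyond 50 UMIs, the percent of all genes past 1.5-fold lower was 14.7% in place of 4.9% for MC903, and 5.98% in place of 1.71% (MC903) and 12.2% in place of 4.11% (untreated) for the reporter. Of 15 most alike pairs, 1 was also found over the untreated capture alone. Ehf in both captures and Fxyd2 in untreated DCs gave no reporter ratio with all B-gated barcodes subtracted. The alternatives on depth bins, B- and T-gated barcodes under 3 DC marker UMIs, salivary gland barcodes and the top Csf1 DC were chosen after seeing the data. The causes were not tested. No paired analysis was possible because each population is 1 pool and no result comes from a test.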

Other observations

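The 328 untreated DCs that held at least 3 of the 5 genes differed in other transcripts from the 1726 that held none, in counts thinned to 2000 UMIs per cell. Both sets are from the same capture, with median depths of 2909 and 3002.5 UMIs before thinning. Cells were grouped by measured values, so these are descriptions of the cells with no test. Mucl1 had 59.5 CPM in the DCs with at least 3 genes and 7.24 CPM in those with none, Adgre4 61.0 and 10.4 CPM, and Sod3, the extracellular superoxide dismutase, 71.6 and 16.2 CPM. Cxcl1 had 451 and 149.5 CPM, and Aldh1a2, which makes retinoic acid, 54.9 and 18.8 CPM. The costimulatory genes Cd80 (45.7 and 98.2 CPM) and Cd86 (88.4 and 188 CPM) and the BFP reporter (10.7 and 35.3 CPM) were lower in the DCs with at least 3 genes, while Ccr7 (log2 ratio 0.08), Fscn1 (-0.14) and Ccl22 (0.13) were close. Ccl17, a chemokine that attracts T cells, was higher in the DCs with at least 3 genes, with 468 and 264 CPM (log2 ratio 0.83, 0.64 to 1.02). S100a9, a neutrophil marker, had 0 UMIs in the DCs with at least 3 genes and 417 in those with none, so neutrophil transcripts move with this grouping and their part in it was not tested.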
